A study of Drosophila melanogaster with 3 samples.

Results

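The genes Dref, M1BP, Trl, BEAF-32, CTCF, Cp190, su(Hw), Ibf1, Chro and pzg encode proteins that bind housekeeping promoters or the borders of chromatin domains in Drosophila melanogaster, and are 10 of the 13945 protein-coding genes on the arms X, 2L, 2R, 3L, 3R and 4. The genes were listed by name, and their peaks were those with a summit in the gene body or within 5 kb of an annotated transcription start site (TSS). No measured value entered the rule, although the genes were listed with earlier results of these data known. The values are positions of SREBP on DNA, read by chromatin immunoprecipitation with sequencing (ChIP-seq). SREBP is the fly's sterol regulatory element binding protein, a membrane-bound transcription factor that is cut free to enter the nucleus and is known for its control of lipid synthesis genes. The larvae carried a transgene for stable expression of an SREBP fusion with an N-terminal GFP, which was pulled down with an antibody against GFP. All 3 biological replicates were wandering larvae of the last instar, whole animals of both sexes pooled, and they form 1 group, so no condition was compared with another. The antibody field of the labels names HLH106, another name of SREBP. The labels give neither the promoter that drives the fusion nor the state of the animals' own SREBP gene. In whole larvae, binding in few cells and weak binding in many cells cannot be told apart.

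Insulator proteins mark places where neighbouring chromatin domains meet. Some recognise DNA themselves, such as CTCF, Su(Hw), BEAF-32 and Ibf1. Others, such as Cp190, Chro and pzg, are largely brought in by them. Many fly domain borders lie at promoters of constantly active genes, where Dref and M1BP also bind, and GAGA factor, the product of Trl, keeps promoters open.

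A peak's strength was its rank by signal within its list, with rank 1 the strongest. The optimal set, the authors' list of peaks that passed a reproducibility analysis, held 7993 peaks. They were the 7993 strongest of the 30000 pooled peaks. Each replicate list also held 30000 peaks. A peak was counted as found in a replicate when a summit lay within 150 bp among that replicate's 7993 strongest, which was so in all 3 replicates for 71.8% of the optimal peaks. Depth is unknown, because peak lists carry no read totals.

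All 10 genes carried an optimal peak in the gene body or within 5 kb of a TSS, against 55.7% of all protein-coding genes. Their 16 optimal peaks gave a mean of 1.6 per gene, against 1.16 over all genes, and the median was 1 in both. The median territory searched was 10001 bp for both, so the listed genes had no more room for peaks at the median. Each of the 10 had such a peak that was found in all 3 replicates, against 46.2% of all genes. Of the 16 peaks, 15 were found in all 3 replicates, and the other one, upstream of CTCF, in 2. Within 500 bp of a TSS, here called the promoter, 9 of the 10 genes had an optimal peak, against 28.7% of all genes. Ibf1 was the exception. The share over all genes was much the same in each replicate alone, at 28.8%, 28.5% and 29.4%, where 9, 10 and 9 of the listed genes had a promoter peak among the 7993 strongest.

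These counts depend on letting a peak count for each gene near it. Only 7 of the 16 peaks were nearest to a TSS of the listed gene, and 9 were nearer to a TSS of another protein-coding gene. When each peak counted for 1 gene alone, that of the nearest TSS, 5 of the 10 genes kept a promoter peak, against 21.7% of all genes. Under that assignment Chro, Trl, Dref, BEAF-32 and CTCF kept theirs, and M1BP, Cp190, su(Hw) and pzg did not.

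**Figure D1:**
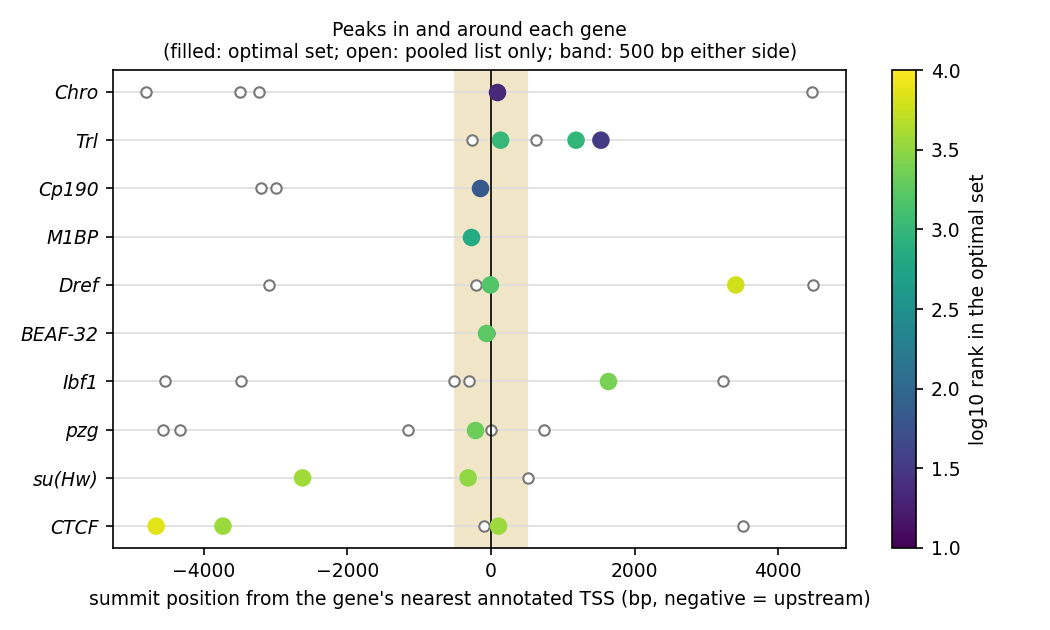
Summits in and around each of the 10 genes, by distance in bp from the gene's nearest annotated TSS (negative is upstream). Filled points are the 16 optimal peaks, coloured by log10 rank, open points are the 26 further pooled peaks, and the band marks 500 bp either side. A summit of the optimal set lies in the band for every gene but Ibf1.

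The strongest peak of the 10 genes lay at Chro, which encodes Chromator, a chromodomain protein found in the interbands of polytene chromosomes. Chro lies on the minus strand of 3L from 22873702 to 22878984 (FBgn0044324, build dm6), and the peak spanned 22878673 to 22879127. It was at rank 22 of the optimal set. Its summit lay 80 bp inside the gene, in an annotated 5' UTR. Its ranks in replicates 1, 2 and 3 were 25, 26 and 22 (mean 24.3 ± 2.08, SD, n = 3). The 3 replicate summits lay within 6 bp of each other, the tightest of the 10 genes. The TSS of Ssl1, a gene for a subunit of the general transcription factor TFIIH, lay within 500 bp of the same summit. The 25 bases around the CGATA motif in this peak, from the RefSeq copy of dm6 like all sequences here, are given on the strand of Chro, chr3L:22878882-22878906, with the match to the motif (here its reverse complement) in capitals.
Chro: agtttaaagcTATCGacaggcaata

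Cp190 encodes a zinc-finger cofactor that several insulator proteins share. Cp190 lies on the minus strand of 3R from 15270432 to 15275241 (FBgn0000283), and its 1 optimal peak spanned 15275145 to 15275609. This peak was at rank 68, with its summit 155 bp upstream of the TSS of Cp190 and 126 bp from that of CG4338. Replicates 1, 2 and 3 placed it at ranks 57, 82 and 71 (mean 70.0 ± 12.5, SD, n = 3). The ranks of Cp190 in the 3 replicates did not overlap with those of Chro, all of which were stronger. The bases within 50 bp of the summit are shown on the strand of Cp190, chr3R:15275346-15275446, because the peak was among the strongest and yet held none of the motifs searched.
Cp190: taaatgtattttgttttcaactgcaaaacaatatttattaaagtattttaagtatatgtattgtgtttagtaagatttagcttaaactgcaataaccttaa

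The gene pzg encodes putzig, also called Z4, a zinc-finger protein that acts with Chromator at interbands. It lies on the plus strand of 3L from 21286099 to 21290310 (FBgn0259785). Its optimal peak spanned 21285680 to 21286021, at rank 2128, with the summit 222 bp upstream of pzg. That summit lay inside the gene CG12974, 85 bp from its TSS. In replicates 1, 2 and 3 it stood at ranks 1955, 4638 and 1536 (mean 2710 ± 1683, SD, n = 3). Replicate 2 was the weakest here, and pzg had the widest spread of ranks among the strongest peaks of the 10 genes. A weaker summit at rank 27559 of the pooled list lay 7 bp from the TSS of pzg.

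Among the promoter-binding factors, Trl had its strongest peak away from a promoter. Trl encodes GAGA factor, which binds GA repeats and opens promoter chromatin. The gene lies on the minus strand of 3L from 14747929 to 14761049 (FBgn0013263) and has 4 annotated TSSs. Its peak at rank 33, from 14759259 to 14759752, had its summit in an intron, 1530 bp downstream of the nearest TSS of Trl, with no protein-coding TSS within 500 bp. Its ranks in replicates 1, 2 and 3 were 30, 32 and 38 (mean 33.3 ± 4.16, SD, n = 3). All 3 were weaker than every replicate rank of Chro and stronger than every one of Cp190. A second intronic peak at rank 933 lay 1184 bp inside, where the body of CG42507 overlaps, and a peak at rank 1016 lay 133 bp inside a TSS, in a 5' UTR. That promoter peak was at ranks 1170, 1070 and 970 in replicates 1, 2 and 3. The bases within 50 bp of the strongest intronic summit are shown on the strand of Trl, chr3L:14759469-14759569. They hold no GAGAGAG on either strand.
Trl: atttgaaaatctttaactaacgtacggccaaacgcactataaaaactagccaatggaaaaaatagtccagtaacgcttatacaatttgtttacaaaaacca

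M1BP encodes a zinc-finger protein that binds the core promoters of many housekeeping genes, those of ribosomal proteins included. M1BP lies on the minus strand of 3R from 8729790 to 8731698 (FBgn0037621). Its 1 optimal peak spanned 8731639 to 8732160 at rank 686, with the summit 274 bp upstream of M1BP and 119 bp from the TSS of CG8202. Replicates 1, 2 and 3 placed it at ranks 531, 785 and 798 (mean 704.7 ± 150.5, SD, n = 3). The replicate summits were spread over 123 bp, the widest of the 10 genes. The bases within 50 bp of the summit are shown on the strand of M1BP, chr3R:8731922-8732022. They hold no match to GGTCACACT, the motif of the protein that the gene itself encodes.
M1BP: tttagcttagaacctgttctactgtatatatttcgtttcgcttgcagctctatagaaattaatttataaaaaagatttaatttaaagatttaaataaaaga

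Dref encodes the factor that binds the DNA replication-related element, TATCGATA, at promoters of proliferation and housekeeping genes. Dref lies on the minus strand of 2L from 9964147 to 9967229 (FBgn0015664). Its strongest peak spanned 9967001 to 9967444 at rank 1520, with the summit 9 bp upstream of the TSS, in the 84 bp that separate Dref from RpL13, a ribosomal protein gene on the other strand. In replicates 1, 2 and 3 it stood at ranks 1547, 1275 and 1588 (mean 1470 ± 170.1, SD, n = 3). The other optimal peak, at rank 6085, lay past the far end of Dref and 66 bp from the TSS of CG5850. The upstream bases of the summit window that lie outside annotated UTRs are shown on the strand of Dref, chr2L:9967230-9967288. They hold the shorter motif CGATA in its reverse complement, in capitals, without the full element.
Dref: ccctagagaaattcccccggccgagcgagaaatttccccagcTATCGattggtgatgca

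Ibf1 encodes one subunit of a pair of insulator proteins that recruit Cp190, and Ibf2, the other subunit, is its head-to-head neighbour. Ibf1 lies on the plus strand of 3R from 9258964 to 9260400 (FBgn0037670). Its 1 optimal peak, from 9260480 to 9260696 at rank 2429, lay beyond the 3' end of Ibf1 and 51 bp from the TSS of ATP6AP2, a gene for an accessory subunit of the vacuolar proton pump. Its ranks in replicates 1, 2 and 3 were 2584, 2216 and 2628 (mean 2476 ± 226.2, SD, n = 3). Of 2 weaker pooled summits nearby, that at rank 11706 lay between Ibf1 and Ibf2, 304 bp upstream of Ibf1, and that at rank 9770 lay inside Ibf2, 47 bp from its TSS. For both, replicate 2 alone had a matching summit among its 7993 strongest, the same one at rank 7906. The bases within 50 bp of the optimal summit are shown on the strand of Ibf1, chr3R:9260537-9260637, because they hold CGATA 2 times (in capitals), which was so for no other peak of the 10 genes.
Ibf1: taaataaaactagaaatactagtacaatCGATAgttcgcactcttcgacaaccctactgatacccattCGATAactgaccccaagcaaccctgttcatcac

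The gene su(Hw) encodes the zinc-finger protein that binds the insulator of the gypsy retrotransposon. It lies on the minus strand of 3R from 14304455 to 14308589 (FBgn0003567). Its stronger peak spanned 14308805 to 14309019 at rank 3155, with the summit 319 bp upstream of su(Hw) and 181 bp from the TSS of Polr2I, a gene for a subunit of RNA polymerase II. Replicates 1, 2 and 3 placed it at ranks 2606, 4796 and 2931 (mean 3444 ± 1182, SD, n = 3). The other peak, at rank 3731, lay 2624 bp upstream in the body of CG31321.

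CTCF, the gene of the zinc-finger insulator protein that flies share with vertebrates, carried 3 optimal peaks, all weaker than the promoter peak of su(Hw). The gene lies on the minus strand of 3L from 7353578 to 7356713 (FBgn0035769). Its promoter peak, from 7356411 to 7356806 at rank 3538, had its summit 104 bp inside the gene in the 5' UTR, with no other protein-coding TSS within 500 bp. In replicates 1, 2 and 3 it stood at ranks 2632, 5145 and 4412 (mean 4063 ± 1292, SD, n = 3). A peak of nearly the same rank, 3576, lay 3732 bp upstream, 116 bp from the TSS of Sec63, a gene of protein transport into the endoplasmic reticulum. A TSS of the gene pst also lay within 500 bp of that summit. The peak at rank 7315, at 4662 bp upstream, was the one nearest to the 5 kb bound and the one found in 2 replicates, since it was at rank 11900 in replicate 3. The nearest optimal summit beyond the bound lay 5813 bp from a TSS of Cp190, at rank 2690.

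BEAF-32 encodes the boundary element-associated factor, which binds CGATA clusters at domain borders and promoters. The gene lies on the plus strand of 2R from 14770469 to 14772630 (FBgn0015602). Its 1 optimal peak spanned 14770218 to 14770553 at rank 1754, with the summit 64 bp upstream of a TSS and no other protein-coding TSS within 500 bp. Its ranks in replicates 1, 2 and 3 were 1888, 2152 and 1356 (mean 1799 ± 405.4, SD, n = 3). A second pooled summit, at rank 8417 and so just below the optimal set, lay inside the gene, in a 5' UTR, 23 bp before another annotated TSS of BEAF-32.

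For each gene, the peak strongest in the optimal set was followed through the 3 replicates. Ordered by its mean rank there, the genes ran Chro, Trl, Cp190, M1BP, Dref, BEAF-32, Ibf1, pzg, su(Hw) and CTCF. Neighbours down to Dref had replicate ranks that did not overlap, and neither did those of BEAF-32 and Ibf1. Among neighbours, the ranks overlapped between Dref and BEAF-32, Ibf1 and pzg, pzg and su(Hw), and su(Hw) and CTCF. Beyond neighbours, the ranks of pzg (1536 to 4638) also overlapped with those of Dref, BEAF-32 and CTCF. Those of Ibf1 also overlapped with those of su(Hw). The ranges over the replicates do not separate the genes of any of these pairs. Within each replicate, however, the followed peak of pzg was stronger than that of su(Hw), in 3 of 3 replicates. That of su(Hw) was stronger than that of CTCF, also in 3 of 3. Dref was stronger than BEAF-32 in 2 of 3, and Ibf1 than pzg in 1 of 3. With the strongest peak of each gene taken anew in each replicate, neither 3 of 3 order held. In replicate 2, su(Hw) at rank 3423 was then stronger than pzg at 4638. In replicate 1, CTCF at rank 2601 was stronger than su(Hw) at 2606.

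**Figure D2:**
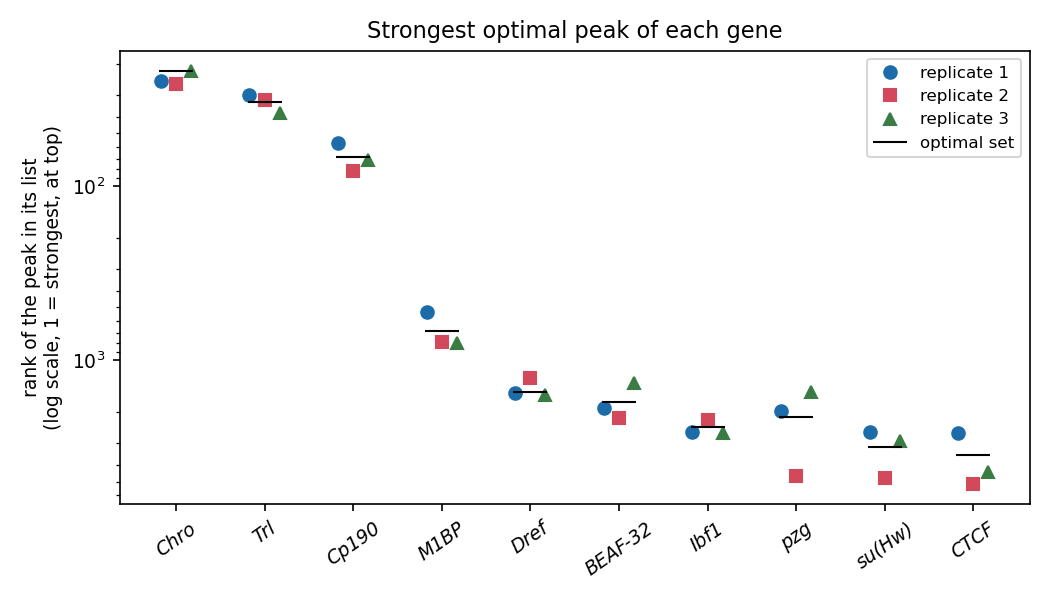
Rank of the peak of each gene that was strongest in the optimal set, in each replicate (points) and in the optimal set (lines). The log axis has the strongest at the top. Chro, Trl and Cp190 sit between ranks 22 and 82 in every replicate, and pzg, su(Hw) and CTCF show the widest gaps, with replicate 2 the weakest.

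Chro, Cp190 and M1BP had a promoter peak among the 1000 strongest optimal peaks, 3 of the 10 genes against 5.21% of all genes. With Trl, 4 of the 10 had such a peak anywhere in the territory, against 13.6%. Chro, Trl and Cp190 had a peak among the 100 strongest, against 1.86% of all genes, a bound chosen after the values were seen. With each peak counted only for its nearest TSS, 2 of the 10 genes, Chro and Trl, had such a peak and Cp190 did not, against 0.645% of all genes. The median rank of the strongest promoter peak was 1520 over the 9 genes that had one and 3161 over the 4009 genes that had one.

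**Figure D3:**
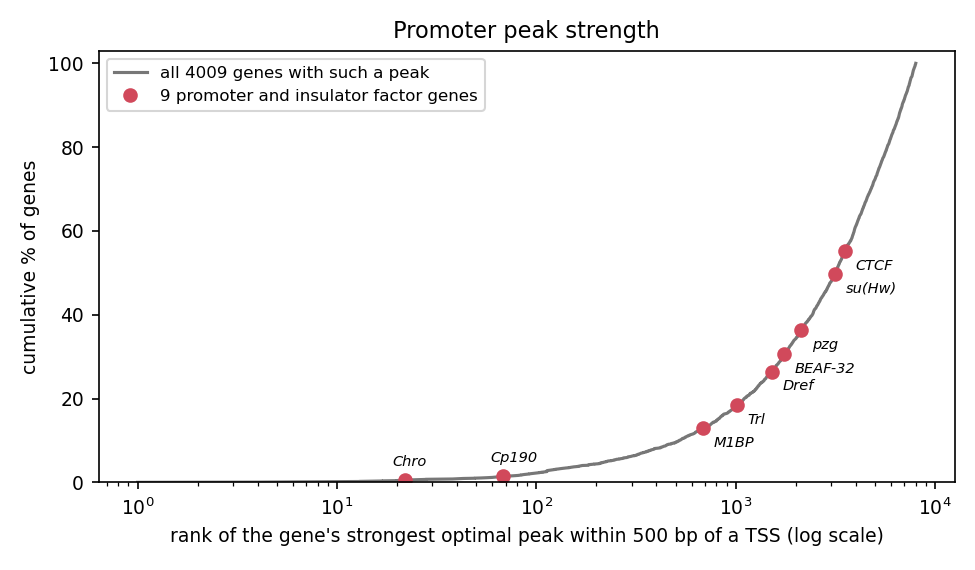
Cumulative percentage of the 4009 genes with an optimal promoter peak (line) against the rank of that peak on a log axis, with the 9 factor genes marked. The marks run from Chro at rank 22 to CTCF at rank 3538, and all but CTCF lie at or before the median rank of 3161.

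Of the 9 strongest promoter peaks, 6 also lay within 500 bp of another gene's TSS, a share near the 56% of the 4009 genes with such a peak. Of the 9 summits, 6 lay upstream of the TSS, against 87.6% over the 4009 genes, with Chro, Trl and CTCF the exceptions. Of the 10 genes, 8 had a neighbour that starts on the other strand within 1000 bp, as for Chro and Ssl1, which lie 105 bp apart. Over all protein-coding genes this was so for 36.2%. An optimal promoter peak was present at 49.6% of all genes with such a neighbour and at 16.9% of those without. Among the listed genes it was present at 7 of the 8 with one (Ibf1 lacked it) and at 2 of the 2 without, BEAF-32 and CTCF. This split was made after the values were seen, and the part of shared promoters in the counts was not tested. The summit lay between both start sites for Dref, M1BP, Cp190 and su(Hw).

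The sequence at the 16 summits was read within 50 bp on each side, on both strands. CGATA, the core of the DNA replication-related element that BEAF-32 also binds, was present in 5 of the 16 windows, against 14.9% of all optimal peaks. These were 1 window each at Dref, Ibf1, Chro, pzg and the farthest CTCF peak. None of the 16 held the full element TATCGATA (1.44% of all optimal peaks), the M1BP motif GGTCACACT (0.701%), GAGAGAG (0.976%), the E-box CACGTG (0.576%), the sterol regulatory element TCACNCCAC (0.15%) or AGNNGGCGC, the CTCF core (1.26%). Within 100 bp on each side, the full element was present in 1 of the 16, the CTCF peak at rank 3576 (3.18% of all optimal peaks), and the CTCF core in 1, the promoter peak of CTCF itself (2.21%). The full element contains CGATA on both strands, and the other motifs do not contain it. The G+C content of the 16 windows had a median of 31.7%, against 30.7% over all optimal peaks, and it was 20.8% at Cp190, 22.8% at M1BP and 46.5% at the strongest peak of Dref.

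Genes of known partners were counted from 4 lists. Of 37 such genes, 17 had an optimal promoter peak, or 45.9% against the 28.7% of all genes. Among the 1000 strongest peaks, 3 of the 37 had one, against 5.21% of all genes. With peaks found in all 3 replicates only, 12 of the 37 had one, against 22% of all genes. With the 3996 strongest optimal peaks only, 8 of the 37 did, against 17.6%. Insulator partners were at the level of all genes, with 3 of 10, or 30%: Cap-H2, a condensin subunit gene, at rank 1517, pita, a zinc-finger insulator gene, at rank 6781 and insv at rank 7308. Ibf2, mod(mdg4) and dwg were among the 7 without one. The insv peak was poorly reproduced, with ranks 6432, 9270 and 9164 in replicates 1, 2 and 3, and so counted as found in replicate 1 alone. Of the cohesin list, whose products hold DNA strands together, 3 of 7 had an optimal promoter peak, or 42.9%, against 28.7% of all genes. The cohesin regulator gene pds5 was at rank 279, with ranks 296, 390 and 215 in replicates 1, 2 and 3 (mean 300.3 ± 87.6, SD, n = 3), and SA1, a cohesin subunit gene, was at rank 687. Each of the 2 was shared with a TSS on the other side, that of Mppe for pds5 and that of Gas41 for SA1. SMC1, the gene of a cohesin core subunit, was at rank 4272.

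GAGA and related factors had promoter peaks at 5 of 6 genes, against 28.7% of all genes, all of them weaker than the promoter peak of Trl. Of these, 2 were poorly reproduced. The Clamp peak, at rank 7806, had no matching summit in replicate 1 and was at rank 15906 in replicate 2. The ttk peak, at rank 7763, was at ranks 8898 and 9048 in replicates 1 and 2. The strongest were psq at rank 2706, lolal, whose product pairs with GAGA factor, at rank 3236 and Adf1 at rank 4117, and zld, whose product opens chromatin in the early embryo, had none. Of the promoter partners, 6 of 14 had one, or 42.9%, against the same 28.7%. The strongest was row, at rank 418, with ranks 303, 728 and 387 in replicates 1, 2 and 3 (mean 472.7 ± 225.1, SD, n = 3). Rcd5 followed at rank 1863 and JIL-1, the gene of a histone kinase found at interbands, at rank 2554. The Rcd5 peak had no matching summit in replicate 2, and the Trf2 peak, at rank 6393, had none in replicate 1.

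**Figure D4:**
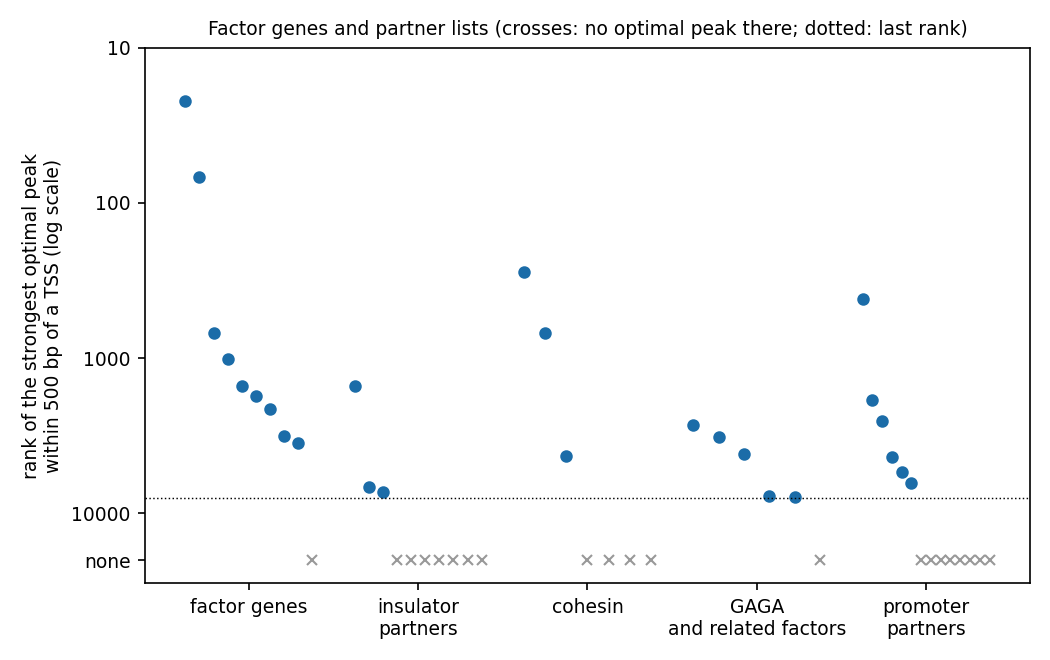
Rank of the strongest promoter peak of the optimal set (500 bp from a TSS) for the 10 factor genes and the 37 genes of the 4 partner lists, on a log axis with the strongest at the top. Crosses are genes with no such peak, of which the factor genes have 1 (Ibf1), and the dotted line is the last rank, 7993.

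The promoter peaks whose ranks over the 3 replicates were most like those of Chro were then sought over all protein-coding genes, by the summed absolute difference in log2 rank. Ssl1 had a difference of 0 because it shares the peak. CenG1A and mRpS23, a mitochondrial ribosomal protein gene, followed with 0.566 and share 1 peak, which was at rank 29, 25 and 27 in replicates 1, 2 and 3.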

How the data were processed

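ChIP-seq peak lists of 3 replicates in 1 group were used, with the replicate numbers taken from the labels. Fragments were 200 to 800 bp, per the labels. The authors deposited 1 list per replicate, 1 pooled list and 1 optimal set on dm6, and per the deposited notes the optimal set came from an irreproducible discovery rate analysis of the others. The aligner, peak caller, control and thresholds, not given in the sources used here, could not be checked. Peaks were ranked by the deposited signal value, list by list, since no scale is stated for it. The deposited −log10 q-value was not used, because 7915 of the 7993 optimal peaks share its top value. Summits came from the deposited offset.

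Gene models were those of Ensembl release 115 (BDGP6, version 54), and sequence came from the RefSeq dm6 assembly, with coordinates counted from 1. Counts were made with Python 3.11.15, numpy 2.4.6 and pandas 2.3.3, and the scripts were tested on simulated data. No test was made: counts stand beside the share of all 13945 protein-coding genes. One partner gene, SA, was matched as SA1 by a synonym.

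The 10 genes and the partner lists were chosen with earlier results of these data known. Named genes are the 10 genes with their strongest peak and strongest promoter peak, genes with a TSS within 500 bp of those summits, the 3 strongest of each partner list and the 3 genes whose promoter peaks ranked most like that of Chro, of which Ssl1 shares its peak and the other two share 1 peak. Further peaks and genes named beside these, the 100 strongest peaks, the G+C content, the summit spread and the shared-promoter split were chosen after the values were seen. The alternatives varied distances, thresholds, the peak list, the assignment, the matching and the motif window.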

Additional observations from a re-analysis of the deposited data

How the results depend on the processing

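Of 63 alternatives, 50 left the value within its margin and 13 moved it. The margins for counts were wide. Against 17 partner genes with a promoter peak, both 12 (found in all 3 replicates) and 25 (all pooled peaks) counted as within the margin. With all pooled peaks, 42 peaks fell to the 10 genes and 6665 of all genes had a promoter peak; within 10 kb, 28 peaks did. With each peak counted only for its nearest TSS, 7 peaks fell to the 10 genes, 5 genes met the whole rule (29.6% of all genes) and 5 had a promoter peak (21.7%), while Chro and Trl, 2 genes, had 1 of the 100 strongest (0.645%). With the 3996 strongest optimal peaks, 8 partner genes and 2452 of all genes had a promoter peak, and with the 1000 strongest, 3 of the 10 genes, 3 partner genes and 726 of all genes did. At 250 bp, 7 of the 10 genes had a promoter peak, without M1BP and su(Hw), against 23.5% of all genes. With summits matched within 50 bp, 9 genes had a peak found in all 3 replicates, without M1BP, against 39.9% of all genes. Leaving out each replicate in turn gave 10 to 10, against 47.2% to 50.5%. With windows of 25 and 100 bp on each side of the summit, 4 and 7 of the 16 peaks held a motif, against 8.91% and 33.2% of all optimal peaks. The mean replicate rank of Chro was 24.3, against 22 in the optimal set, and the promoter peak of Trl was at rank 1016, against 33 for its strongest. What depth limits is unknown, because the lists give no read totals. No paired analysis was possible because all samples form 1 group.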
